A study of Arabidopsis thaliana with 12 samples.

Results

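Stems of Arabidopsis thaliana plants that overexpress C3H15 were compared with stems of the c3h14c3h15 double mutant. Members were the 3 arrays titled as C3H15 overexpressors and the 3 titled as double mutants, 6 of the 12 arrays of the series, with all 22746 of its 22810 probe sets that are not array controls. The other 6 arrays, 3 of wild type (WT) and 3 of plants that overexpress C3H14 (C3H14-OE), stayed out of the test and are given only as levels. All plants were of ecotype Col-0 and stood 12 to 17 cm tall, grown together at 22 °C with 16 h of light and 8 h of dark. RNA came from the lowest 4 cm of the flowering stem, so every value is a mean over all cell types of that piece. The overexpressor group (C3H15-OE) carries added C3H15 expression, per its label, in a plant whose own C3H14 and C3H15 are not described as altered. The double mutant carries mutations in both genes, per its label. The labels name no promoter and no alleles, and their wording leaves unsaid whether the 3 arrays of a group are separate lines or separate plants. The p-values therefore set each difference only against the spread among these particular samples, which may be technical in part.

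C3H14 and C3H15 are closely related proteins of the tandem CCCH zinc finger class, whose members bind RNA and can change how long a transcript lives, and which in plants can also act on transcription. The flowering stem of Arabidopsis builds thick secondary walls of cellulose, xylan and lignin in its xylem vessels and fibres, while the cells around them keep thin primary walls and, in the outer layers, chloroplasts. The series names secondary wall metabolism and pollen formation as its themes, and setting plants labelled as C3H15 overexpressors against plants labelled as mutant in both genes gives the widest contrast in C3H15 that its groups allow. By their labels the groups also differ in C3H14, which is mutated in the double mutant alone, so a difference between them cannot be credited to C3H15 alone.

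The 6 arrays had log2 medians of 5.65 to 5.78. Correlations of log2 values were 0.987 to 0.993 among the C3H15-OE arrays, 0.980 to 0.988 among the mutant arrays and 0.953 to 0.978 between the groups. The first principal component of the 6 arrays held 64.9% of the variance. C3H15-OE scored 51.27, 44.96 and 27.86 on it and the mutant -23.34, -55.37 and -45.38, so C3H15-OE replicate 3 and mutant replicate 1 stood nearest the opposite group. The median SD of a probe set was 0.14 log2 units in C3H15-OE and 0.18 in the mutant. Signals of the 3′ control probe sets minus those of the 5′ ones track RNA length. For GAPDH they were 0.74 to 0.86 in C3H15-OE and 0.40 to 0.93 in the mutant. For actin they were 1.53 to 1.82 and 1.41 to 1.97. Mutant replicate 3 was the highest of the 6 arrays in both, at 0.93 and 1.97. For ubiquitin the signal differences were 0.42 to 0.50 in C3H15-OE and 0.26 to 0.38 in the mutant, without overlap. The part of these differences in the results was not tested. The file has no detection calls, and 3 arrays a group limit the precision.

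C3H14 (AT1G66810) was the only one of the targeted genes named on the array. It read 5.18, 5.39 and 5.99 log2 units in C3H15-OE and 6.55, 6.43 and 6.09 in the double mutant. The groups did not overlap, and the level was 0.84 log2 units lower in C3H15-OE (diff -0.84, SE 0.23, limma adjusted p = 0.0442). That call was lost without any array other than C3H15-OE replicate 3. WT read 7.01, 6.12 and 7.43 and overlapped the mutant, and C3H14-OE averaged 8.20. The sites of the mutations are not given in the labels, and a probe set may still read a transcript broken at another place, so this level is no check of the mutant's label. The probe set of C3H15 (AT1G68200) is unnamed here, and each direction given for C3H15-OE rests on the labels.

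Transcript levels differed widely between the groups. Of the 22746 probe sets, 1946 (8.56%) were higher in C3H15-OE and 1867 (8.21%) were lower at an adjusted p under 0.05, 16.8% in all (limma, Benjamini-Hochberg over all probe sets). At least 2-fold differences were seen for 531 and 747 of these, at least 4-fold for 106 and 103, and at least 8-fold for 25 and 23. An unadjusted p under 0.05 was found for 7643 probe sets where 1137 are expected by chance. The median difference over all probe sets was -0.03 log2 units. All but 1 of the 3813 calls had 3 arrays of one group above all 3 of the other. That separation alone was met by 18.8% of all probe sets with C3H15-OE higher and by 20.6% with C3H15-OE lower. The share called was 2.69% among the 5687 dimmest probe sets and 24.4% among the 5687 brightest.

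**Figure D1:**
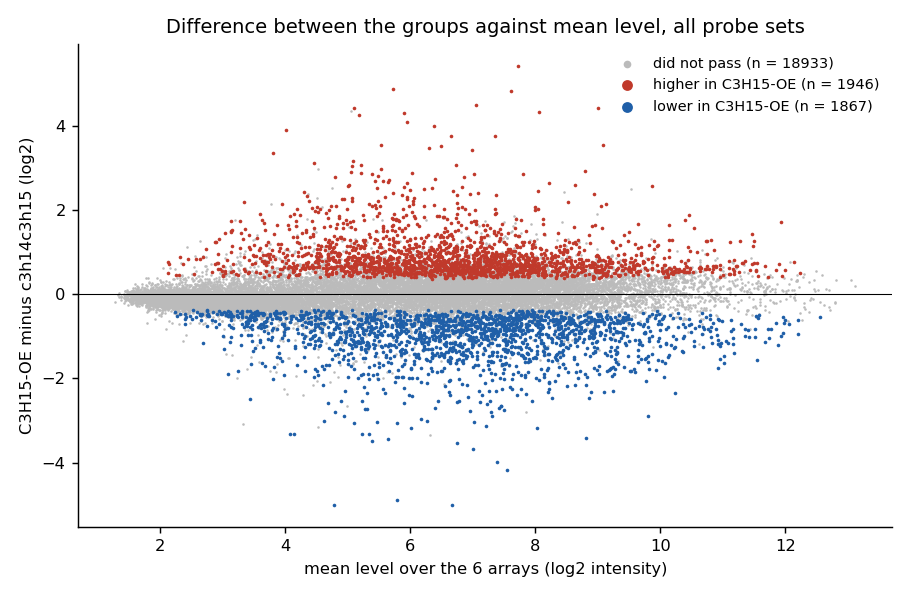
Each point is 1 of 22746 probe sets, with its mean log2 intensity over the 6 arrays on the horizontal axis and the log2 difference, C3H15-OE minus c3h14c3h15, on the vertical axis. Red marks the 1946 probe sets higher in C3H15-OE and blue the 1867 lower, both past an adjusted p of 0.05, and the calls of either direction spread over all levels but the dimmest.

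The counts depended on single arrays. They were lowest, at 564 higher and 741 lower, without C3H15-OE replicate 1. Leaving out C3H15-OE replicate 2 gave 685 and 809, and leaving out mutant replicate 3 gave 719 and 790. With mutant replicate 2 left out there were 1084 and 1270, with C3H15-OE replicate 3 left out 1606 and 1461, and with mutant replicate 1 left out 2003 and 2222. Probe sets called in all 6 of these fits numbered 434 higher and 630 lower. Of the 6 arrays, mutant replicate 1 was the only one without which both counts grew. C3H15-OE replicates 1 and 2 and mutant replicates 2 and 3, which lie at the ends of the first component, are called the 4 outer arrays below.

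**Figure D2:**
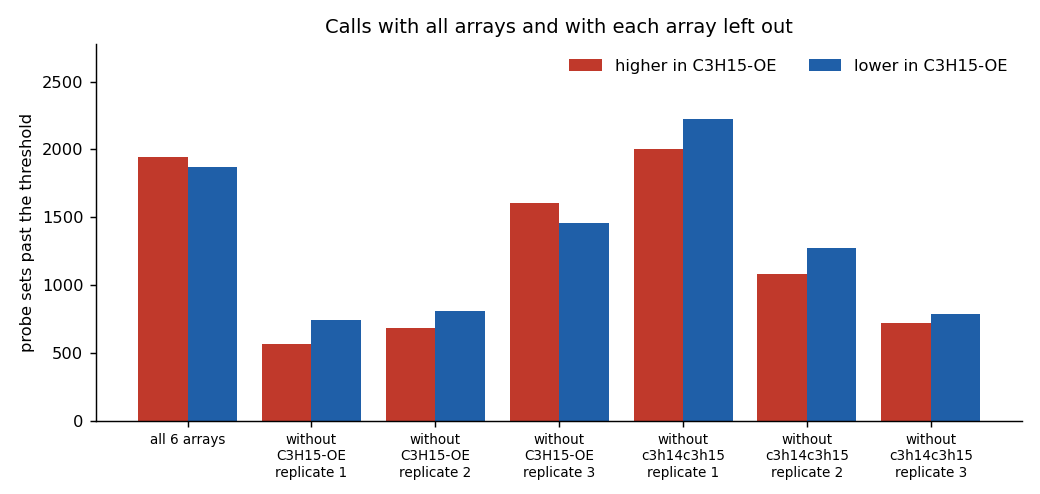
Bars give the number of probe sets past an adjusted p of 0.05, higher (red) and lower (blue) in C3H15-OE, with all 6 arrays and with each array left out in turn. The lowest counts, 564 and 741, are those without C3H15-OE replicate 1.

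Among named genes, 1010 of the 13513 probe sets with 1 gene (7.47%) were higher and 939 (6.95%) lower, and the counts of gene groups below stand beside these shares. Genes known here only by a locus number are given without a role. Lower levels of a transcript in such tissue can come from fewer cells of a type or from less RNA in each cell, and these cannot be told apart.

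Xylan is the main hemicellulose of secondary walls, and its backbone is built in the Golgi by a complex around the xylosyltransferase IRX10, with the DUF579 proteins IRX15 and IRX15-L acting on the same polymer. Of 18 listed xylan genes 4 were named on the array, and 3 of them were lower in C3H15-OE. IRX15-L (AT5G67210) read 7.48, 7.15 and 8.28 in C3H15-OE and 9.82, 10.50 and 9.98 in the mutant. Its difference of -2.46 log2 units was 5.51-fold (SE 0.30, limma adjusted p = 0.00454). Every mutant array was above every C3H15-OE array by more than 1 log2 unit. IRX15 (AT3G50220) read 7.18, 6.52 and 7.77 against 9.14, 9.42 and 9.25 (-2.11, SE 0.29, adjusted p = 0.00554). IRX10, listed as GUT2 (AT1G27440), read 7.95, 7.24 and 8.44 against 9.38, 9.34 and 9.37 (-1.49, SE 0.27, adjusted p = 0.0132), a call lost without mutant replicate 3. In all 3 genes C3H15-OE replicate 2 was the lowest array and replicate 3 the highest of its group, while the mutant arrays lay closer together. Its near copy IRX10L, listed as GUT1 (AT5G61840), read 7.76, 7.74 and 7.72 against 7.86, 8.19 and 8.08, also without overlap but with a difference of -0.30 that did not pass (SE 0.12, adjusted p = 0.13). The median difference of the 4 was -1.80. WT means lay between the groups for IRX15-L (8.90), IRX15 (8.33) and IRX10 (8.79), and the C3H14-OE means (8.15, 7.56 and 8.18) lay between WT and C3H15-OE. None of the 5 listed cellulose synthase subunits and partners of secondary walls, and none of the 19 listed regulators of secondary walls, had a named probe set.

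Xylan and other wall polymers carry acetyl groups added by trichome birefringence-like proteins. Of 22 named members 0 were higher and 3 lower. TBL34, which acetylates xylan, read 5.25, 5.33 and 5.66 in C3H15-OE and 6.41, 7.39 and 6.73 in the mutant (-1.43, SE 0.25, adjusted p = 0.0117), a call lost without C3H15-OE replicate 1. TBL25, which acetylates mannan, read 7.44, 7.5 and 7.64 against 8.58, 8.88 and 8.95 (-1.28, SE 0.14, adjusted p = 0.00348). Both genes were separated by over 0.7 log2 units between the nearest arrays of the groups. The other was TBL41 (-0.52), called in 1 of 6 fits with an array left out, that without mutant replicate 1, and without C3H15-OE replicate 1 the family had 1 call. Its median was -0.19.

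Enzymes that cut and rejoin the xyloglucan of primary walls, the XTH family, held one of the largest falls among named genes. XTH16 (AT3G23730) read 3.67, 3.98 and 4.13 in C3H15-OE and 7.14, 7.70 and 7.27 in the mutant. The difference of -3.44 was 10.9-fold (SE 0.19, adjusted p = 0.00162), and it was called in every fit with 1 array left out. XTH32 read 8.78, 9.19 and 9.10 against 10.78, 10.48 and 10.31 (-1.50, SE 0.17, adjusted p = 0.00398). In all, 3 of 9 named XTH genes were lower and 0 higher, with a median of -0.58. The third was XTH33, described below with the genes that divide the mutant arrays. Expansins loosen walls at low pH, and of 18 named 1 was higher and 4 lower. EXPA4 was higher at 10.18, 10.31 and 10.73 against 9.03, 9.32 and 9.38 (1.16, SE 0.17, adjusted p = 0.00716), the opposite direction to the 4 others. EXLA2 (-1.56), EXLA1 (-1.27), EXLB1 (-0.67) and EXPB1 (-0.59) were lower, but no expansin was called lower without any 1 of the 4 outer arrays, and 2 were without C3H15-OE replicate 3.

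Endoglucanases of glycosyl hydrolase family 9 trim cellulose and related glucans. GH9B5 read 5.88, 5.43 and 6.58 in C3H15-OE and 8.55, 8.31 and 7.91 in the mutant (-2.30, SE 0.30, adjusted p = 0.00489). GH9B7 read 8.15, 7.98 and 8.70 against 9.84, 10.33 and 10.07 (-1.80, SE 0.21, adjusted p = 0.00428). The groups were apart on every array for both. GH9A3 was lower (-1.13, lost without any 1 of the 4 outer arrays) and GH9C2 higher (1.12, lost without C3H15-OE replicate 1 or mutant replicate 3), so that 3 of 15 were lower and 1 higher. The pectin methylesterase ATPMEPCRD (AT2G43050) was lower (-1.67, SE 0.32, adjusted p = 0.0148), 1 of 6 named in its family, a call lost without C3H15-OE replicate 2 or mutant replicate 3. COB, a membrane-anchored protein that orients cellulose, was lower by a smaller amount (-0.76, SE 0.17, adjusted p = 0.0224) and lost its call in 4 of the 6 fits with 1 array left out, all but those without C3H15-OE replicate 3 or mutant replicate 1.

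Cortical microtubules guide where cellulose is laid down, and actin filaments carry Golgi bodies and vesicles. Of 7 named tubulins 4 were lower and 0 higher, with a median of -1.10. TUB6 read 10.06, 10.13 and 10.54 in C3H15-OE and 11.45, 11.34 and 11.42 in the mutant (-1.16, SE 0.15, adjusted p = 0.00489). TUA6 (-1.19, adjusted p = 0.0154), TUB5 (-1.10, adjusted p = 0.0175) and TUB1 (-2.58, adjusted p = 0.0138) were lower too. TUA6 lost its call without C3H15-OE replicate 1 or 2, TUB5 without mutant replicate 3, and TUB1 without either C3H15-OE replicate 1 or mutant replicate 3, and the tubulin count was 2 without either of the last 2 arrays. ACT11, an actin best known from reproductive tissue, read 3.79, 4.33 and 4.69 against 7.57, 7.23 and 7.16, a difference of -3.05 or 8.29-fold (SE 0.23, adjusted p = 0.00233). The gap between its nearest arrays was over 2 log2 units, whereas the other named actin, ACT12, stood at -0.23.

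Scaffold proteins of microtubules were lower in part. iqd21, of the IQ-domain family that binds calmodulin and microtubules, read 5.61, 5.19 and 5.97 against 7.53, 7.57 and 7.88 (-2.07, SE 0.21, adjusted p = 0.00332). The family had 4 of 15 lower and 1 higher (IQD22 at 0.76, lost without C3H15-OE replicate 2 or mutant replicate 3), and 1 to 3 lower when single arrays were left out, the fewest without C3H15-OE replicate 1. TRM28, of the proteins that recruit TON1 to microtubules, read 4.42, 4.70 and 4.64 against 6.41, 6.29 and 6.08 (-1.68, SE 0.14, adjusted p = 0.00246). Its family had 3 of 15 lower and 1 higher (TRM19 at 0.52), and the higher call was lost whichever array was left out. The lower count was 1 without any 1 of the 4 outer arrays. The secreted RALF-like peptides, ligands of wall-sensing receptor kinases, had 3 of 11 lower and 0 higher: RALFL24 (-2.01, SE 0.22, adjusted p = 0.00381), RALFL22 (-1.34) and RALFL34 (-1.04), the last lost without any 1 of the 4 outer arrays. RALFL24 read 5.46, 5.72 and 6.17 against 7.53, 8.10 and 7.75, with all mutant arrays above.

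**Figure D3:**
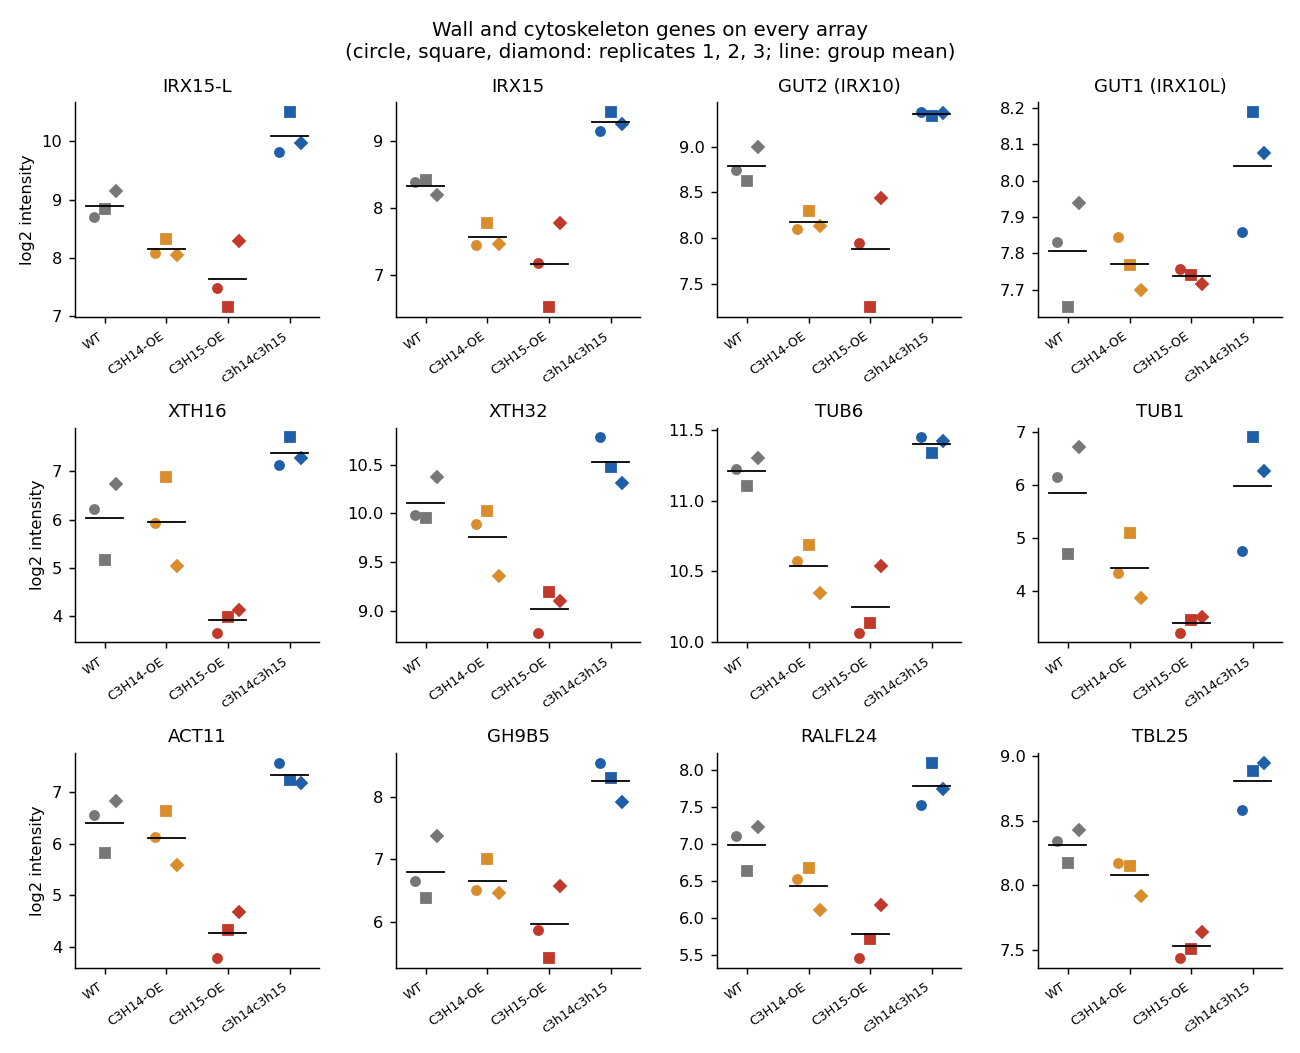
Log2 intensity of 12 wall and cytoskeleton genes on all 12 arrays, with circle, square and diamond for replicates 1, 2 and 3 and a line at each group mean. In 11 of the panels the C3H15-OE arrays (red) are well below the mutant arrays (blue), and GUT1 (IRX10L) shows the smallest difference at -0.30; TUB1 shows mutant replicate 1 (4.76) nearest to C3H15-OE.

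The largest fall among named genes was that of AT5G22580, at 4.91, 5.24 and 6.23 in C3H15-OE and 8.40, 10.69 and 9.84 in the mutant (-4.18, 18.1-fold, SE 0.57, adjusted p = 0.00567). The 15 largest such falls were all at least 6.0-fold, and 10 of them stayed past the threshold whichever array was left out. Besides XTH16 and ACT11 these included AT1G22690 (-3.17), AT5G22460 (-3.04), AT3G14760 (-3.02), AT5G57785 (-2.88), AT5G50915 (-2.79), AT1G70820 (-2.71) and AT5G27290 (-2.58).

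The other 5 of the 15 divided the mutant arrays. AT5G63180 read 3.65, 3.58 and 3.69 in C3H15-OE and 4.63, 8.76 and 7.99 in the mutant (-3.49, SE 0.93, adjusted p = 0.0424). P1R1 (AT5G57780) read 1.93, 2.51 and 2.81 against 3.53, 7.31 and 6.37 (-3.32, SE 0.85, adjusted p = 0.0386). Mutant replicate 1 was thus close to C3H15-OE, and mutant replicates 2 and 3 were far above it. The same order was seen for AT5G44680 (-3.06), AT2G10940 (-2.89), AT1G12845 (-2.73) and XTH33 (-2.53), in which mutant replicate 1 read 4.41, 4.46, 4.90 and 4.54 and the other mutant arrays at least 6.50. All 6 of these calls were lost when any array other than mutant replicate 1 was left out. The WT arrays were divided in the same genes: AT5G63180 read 7.52, 4.43 and 8.30 in WT, and P1R1 read 6.08, 3.74 and 6.64, replicate 2 being the low one each time. C3H14-OE read 3.93 to 4.42 for AT5G63180, near C3H15-OE.

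Nuclear genes of photosynthesis were lower in C3H15-OE. Of 7 named light-harvesting and photosystem subunits 6 were lower and 0 higher, with a median of -1.09. LHCB4.3, a minor antenna protein of photosystem II, read 7.96, 8.01 and 7.42 in C3H15-OE and 9.13, 10.09 and 9.67 in the mutant (-1.83, SE 0.26, adjusted p = 0.00633). PSAN of photosystem I read 10.01, 10.18 and 10.38 against 11.22, 11.99 and 11.95 (-1.53, SE 0.22, adjusted p = 0.0064). Neither gene overlapped between the groups. PSAE-1 (-1.13), PSBY (-1.09), LHCB4.2 (-0.69) and LHCB4.1 (-0.61) were lower as well, of which LHCB4.2 was lost without any 1 of the 4 outer arrays and LHCB4.1 without C3H15-OE replicates 1 or 2 or mutant replicate 2. PSBW stood at -0.47 (adjusted p = 0.0816). WT means differed in where they lay: LHCB4.3 averaged 7.78 in WT, level with C3H15-OE, while PSAN averaged 11.20, between the groups. The mean level over the 7 genes was 10.8 to 11.1 on the WT arrays, 10.4 to 10.6 in C3H15-OE and 11.4 to 11.8 in the mutant.

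All 3 named Calvin cycle genes were lower. SBPASE, which regenerates the acceptor of carbon dioxide, read 8.20, 8.15 and 8.56 against 9.88, 10.57 and 10.16 (-1.90, SE 0.20, adjusted p = 0.00345). PRK stood at -1.29 (adjusted p = 0.0124) and RCA, the activase of Rubisco, at -0.61 (adjusted p = 0.0104), both lost without C3H15-OE replicate 1. The NDH complex carries electrons around photosystem I, and of 9 named nuclear subunits and factors 5 were lower and 0 higher. The mean level of the 9 was 6.15 to 6.31 in WT, 5.91 to 6.14 in C3H15-OE and 6.80 to 7.01 in the mutant. NdhN read 6.07, 6.37 and 6.76 in C3H15-OE and 8.29, 8.33 and 8.28 in the mutant (-1.90, SE 0.18, adjusted p = 0.00299). NdhL (-1.86, adjusted p = 0.0029), CRR42 (-1.91, adjusted p = 0.00299), NdhS (-0.89) and PIFI (-0.64) were also lower, PIFI not without C3H15-OE replicate 1 or mutant replicate 3. The mutant arrays of NdhN lay almost at 1 level, and its WT mean of 6.65 lay in the C3H15-OE range. Of 11 named genes of chlorophyll and haem synthesis 7 were lower and 0 higher, led by LIL3:1 (-1.59, SE 0.24, adjusted p = 0.00724), a partner of chlorophyll synthesis enzymes. CHLI2 of magnesium chelatase (-1.41) and HEME1, a uroporphyrinogen decarboxylase (-1.05), followed, both lost without C3H15-OE replicate 1, C3H15-OE replicate 2 or mutant replicate 3. That count fell to 1 when either C3H15-OE replicate 1 or mutant replicate 3 was left out, to 3 when C3H15-OE replicate 2 was, and to 4 when mutant replicate 2 was. The mean level of the 11 was 7.36 to 7.41 in WT, 6.94 to 7.11 in C3H15-OE and 7.45 to 7.91 in the mutant.

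Transcripts of the chloroplast genome did not follow the nuclear genes. Of 69 named probe sets 0 passed in either direction, 58 had a positive difference, and the median was 0.37. The median rested on 1 array: the mean level over the 69 was 9.21 and 9.12 in mutant replicates 1 and 2 and 7.87 in replicate 3, against 9.04, 9.0 and 9.38 in C3H15-OE. psbT, a small subunit of photosystem II, read 7.81, 7.52 and 3.37 in the mutant and 7.46, 7.62 and 7.74 in C3H15-OE. Without mutant replicate 3 the median was 0.00, and WT replicate 1 was low in the same way, with a mean level of 7.63. The part of RNA quality in these levels was not tested.

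Transcripts of the mitochondrial genome were higher in C3H15-OE in 7 of 23 named probe sets and lower in 0, with a median of 0.34. nad9, a subunit of respiratory complex I, read 6.09, 6.27 and 6.22 against 4.81, 4.94 and 4.35 (1.49, SE 0.17, adjusted p = 0.00398). cox1, of cytochrome c oxidase, read 8.74, 8.68 and 8.47 against 7.95, 7.77 and 6.98 (1.06, SE 0.25, adjusted p = 0.0276), a call lost without C3H15-OE replicate 1 or 2. Both were lower on every mutant array, with replicate 3 lowest. The mean level over the 23 was 5.60 to 5.68 in C3H15-OE, 5.07 to 5.37 in the mutant and 5.39 to 5.74 in WT. Leaving out C3H15-OE replicate 1 gave a count of 2, leaving out C3H15-OE replicate 2 a count of 1, and leaving out mutant replicate 3 a count of 4 and a median of 0.29. These transcripts largely lack the poly(A) tails that the labelling primes on, and the part of RNA quality in their levels was not tested.

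**Figure D4:**
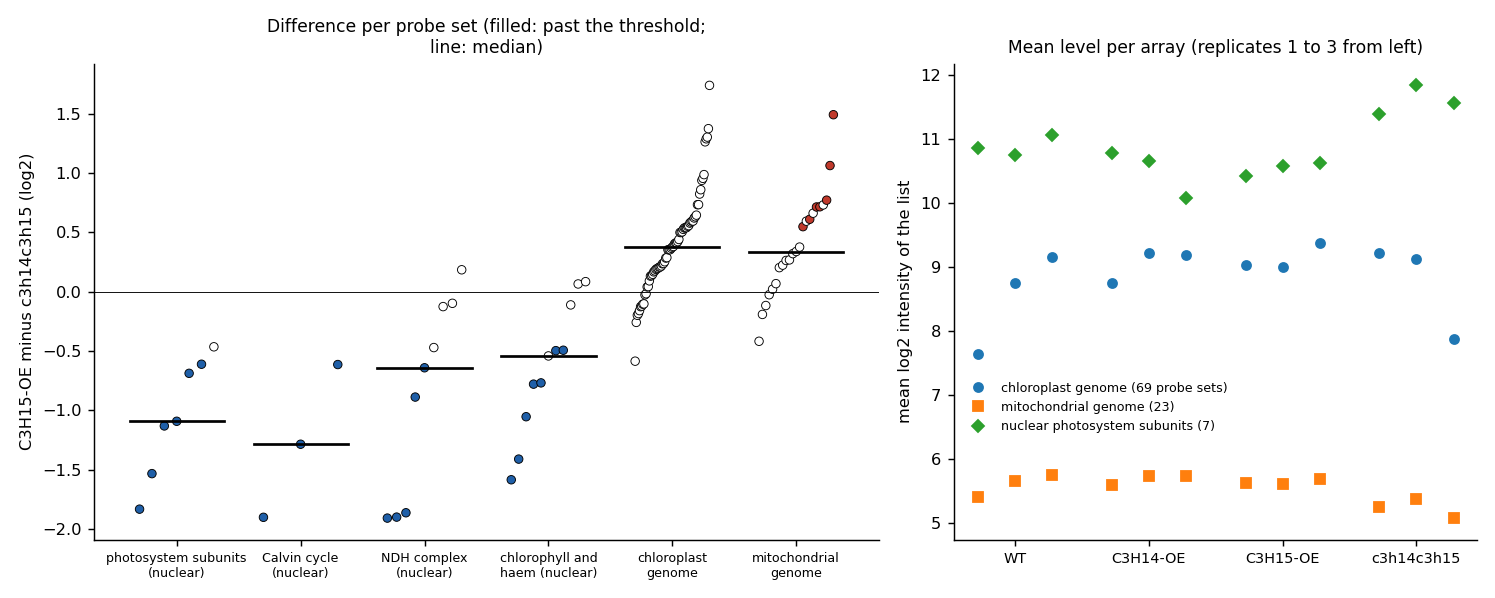
Left, the log2 difference of every named probe set of 6 groups, C3H15-OE minus c3h14c3h15, filled where it passed the threshold, with a line at each median (-1.09 for photosystem subunits, 0.37 for the chloroplast genome). Right, the mean log2 intensity of 3 of these groups on each of the 12 arrays, where the chloroplast genome is low on mutant replicate 3 (7.87) and WT replicate 1 (7.63) alone.

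The largest rise among named genes was that of AT4G16260, which read 11.64, 9.89 and 8.54 in C3H15-OE and 6.17, 3.85 and 5.58 in the mutant (4.82, 28.3-fold, SE 0.83, adjusted p = 0.0112). The 15 largest rises were at least 6.26-fold, and 13 of them stayed past the threshold whichever array was left out. CHI (AT2G43570), named as a chitinase, read 9.83, 9.80 and 8.08 against 6.27, 4.42 and 5.75 (3.76, 13.5-fold, SE 0.59, adjusted p = 0.0083). Even its lowest C3H15-OE array stood well above the highest mutant array. The other named chitinase stood at -0.05 and did not pass. JRG21, whose name marks it as regulated by jasmonate, read 7.79, 6.87 and 6.05 against 3.88, 4.31 and 4.43 (2.7, SE 0.40, adjusted p = 0.0068). Outside the 15 largest, WRKY53, which controls genes of leaf senescence and pathogen defence, read 8.12, 7.41 and 7.30 against 5.30, 4.49 and 5.46 (2.53, SE 0.31, adjusted p = 0.00442). It was 1 of 7 named WRKY genes past the threshold. In AT4G16260, CHI, JRG21 and WRKY53 C3H15-OE replicate 1 was the highest array and replicate 3 the lowest of its group. The WT mean was near the mutant mean for CHI (5.69 against 5.48) and JRG21 (3.96 against 4.21). For AT4G16260 it lay between the groups, at 7.59.

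Plant defensins are small antifungal peptides, and PDF1.2 is a standard marker of the jasmonate and ethylene response. Of 14 named defensins and defensin-like genes 4 were higher and 0 lower, with a median of -0.12. PDF1.2b read 12.05, 10.49 and 8.13 in C3H15-OE and 6.29, 5.47 and 5.91 in the mutant (4.33, 20.2-fold, SE 0.85, adjusted p = 0.0166). Its probe set is marked as shared with similar sequences, and the call was lost without C3H15-OE replicate 2 or mutant replicate 3. PDF1.2 itself read 11.13, 6.83 and 3.73 against 2.83, 2.61 and 3.17. That difference of 4.36 did not pass (SE 1.57, adjusted p = 0.0984), and the C3H15-OE arrays ranged over more than 7 log2 units. PDF1.4 (1.35, SE 0.22, adjusted p = 0.00924), LCR69 (1.24, SE 0.20, adjusted p = 0.00842) and PDF2.1 (0.58) were the other calls, PDF2.1 being kept only without mutant replicate 3. LCR68 stood at -1.71 (adjusted p = 0.0607). Without C3H15-OE replicate 2 the family had 2 calls. Of the other named genes of jasmonate and wounding, STZ, a zinc finger repressor of stress responses, was just past the threshold (1.36, SE 0.38, adjusted p = 0.0493) and was called in 1 of 6 fits with an array left out, that without C3H15-OE replicate 2. THI2.1 (0.47) and CML38 (0.22) did not pass.

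**Figure D5:**
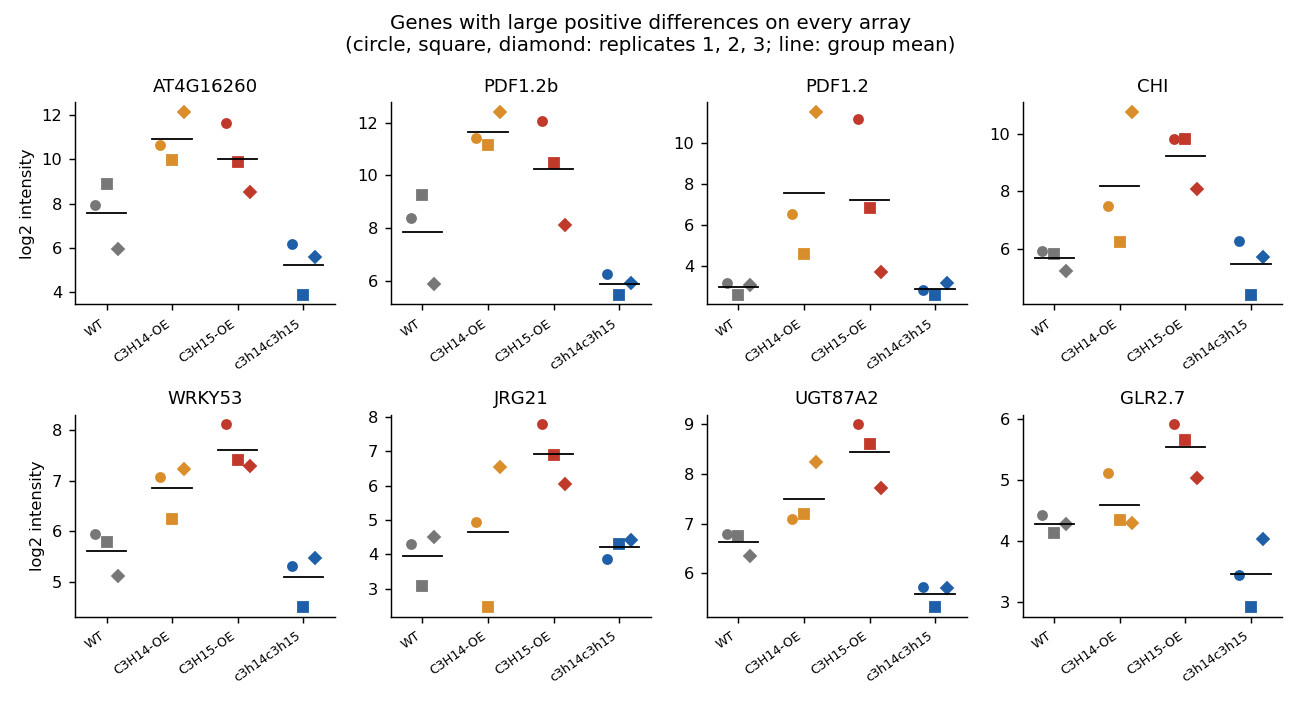
Log2 intensity of 8 genes with large positive differences on all 12 arrays, with circle, square and diamond for replicates 1, 2 and 3 and a line at each group mean. Every C3H15-OE array (red) is above every mutant array (blue) in each panel, and PDF1.2, which did not pass, spans 3.73 to 11.13 in C3H15-OE.

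Among the remaining large rises, AT3G23550 read 9.28, 7.87 and 7.64 in C3H15-OE and 4.52, 4.87 and 4.82 in the mutant (3.53, SE 0.39, adjusted p = 0.00398). AT3G16530 read 10.92, 9.90 and 9.97 against 7.47, 7.25 and 7.28 (2.93, SE 0.26, adjusted p = 0.00299). AT1G06620 read 6.80, 7.30 and 6.98 against 4.48, 4.07 and 4.37 (2.72, SE 0.17, adjusted p = 0.00162). In AT3G23550 and AT3G16530 the C3H14-OE means (10.06 and 10.98) were above those of C3H15-OE (8.27 and 10.27), and the WT means (7.59 and 9.57) were nearer C3H15-OE than the mutant. The others were AT5G12420 (3.11), AT4G00700 (3.06), AT4G27300 (2.86), AT2G41640 (2.79), AT5G39670 (2.78) and AT1G72060 (2.65), and AT4G08780 (3.16), whose call was kept only without C3H15-OE replicate 3.

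UDP-glycosyltransferases attach sugars to hormones, phenolics and toxins. Of 50 named 7 were higher and 3 lower, with a median of -0.07. UGT87A2 read 9.01, 8.60 and 7.73 in C3H15-OE and 5.73, 5.32 and 5.72 in the mutant (2.86, 7.25-fold, SE 0.31, adjusted p = 0.00367). UGT72E1, which glucosylates lignin precursors, read 6.12, 5.40 and 5.18 against 3.56, 3.66 and 3.39 (2.03, SE 0.24, adjusted p = 0.00411). The groups were apart by over 1.5 log2 units in both. UGT73B5 (1.86) and UGT73B1 (0.97) also kept their calls in every fit with 1 array left out, and the higher count was 4 without any 1 of the 4 outer arrays. The 3 lower calls were at most 0.52 log2 units in size. No UDP-glycosyltransferase was called lower without those 4 arrays in turn, 1 was without C3H15-OE replicate 3, and 2 were without mutant replicate 1.

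Beta-glucosidases release sugars from such conjugates, and of 20 named 3 were higher and 2 lower. BGLU33 read 9.84, 9.46 and 9.54 in C3H15-OE and 8.14, 6.61 and 7.52 in the mutant (2.19, SE 0.35, adjusted p = 0.00863). BGLU44 averaged 8.35 ± 0.30 (SD, n = 3) in C3H15-OE and 9.63 ± 0.32 in the mutant (-1.29, SE 0.21, adjusted p = 0.00948). The family thus held members apart in both directions, BGLU31 (1.45) and BGLU40 (0.99) being the other rises and BGLU41 (-1.05) the other fall. BGLU31 kept its call only without C3H15-OE replicate 3, and BGLU40 lost it without C3H15-OE replicate 1, mutant replicate 2 or mutant replicate 3. The higher count was 1 without C3H15-OE replicate 1, mutant replicate 2 or mutant replicate 3.

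Of 25 listed lignin genes 5 were named. CCOAMT (AT1G67980), which RefSeq lists as a caffeoyl-CoA 3-O-methyltransferase, read 7.75, 7.36 and 6.68 in C3H15-OE and 4.61, 4.36 and 4.91 in the mutant (2.64, 6.23-fold, SE 0.27, adjusted p = 0.00341). HCT, an enzyme early in the lignin branch, read 10.35, 10.25 and 10.69 against 11.13, 10.57 and 10.81, with overlap and a difference of -0.41 that did not pass (adjusted p = 0.167). PRX52 stood at 0.67 and CCR2 at 0.47, neither past the threshold. Most of the lignin pathway thus stays unnamed here.

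Glutamate receptor-like channels carry calcium signals, for example on wounding, and 3 of 8 named were higher with 0 lower. GLR2.7 read 5.92, 5.66 and 5.03 in C3H15-OE and 3.45, 2.92 and 4.04 in the mutant (2.07, SE 0.32, adjusted p = 0.00782). GLR1.4 read 6.16, 6.03 and 5.59 against 4.65, 4.59 and 4.64 (1.29, SE 0.16, adjusted p = 0.00463), and GLR2.8 was higher by 0.71. The groups were apart for all 3, and GLR2.8 lost its call without C3H15-OE replicate 1, C3H15-OE replicate 2 or mutant replicate 3.

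Cold and clock genes moved both ways. COR15B and COR15A, neighbouring genes for stromal proteins that protect chloroplast membranes during freezing, were lower. COR15B read 5.36, 5.85 and 5.91 in C3H15-OE and 8.13, 8.19 and 8.11 in the mutant (-2.44, SE 0.16, adjusted p = 0.00162). COR15A read 5.79, 6.01 and 6.65 against 7.82, 8.55 and 8.39 (-2.11, SE 0.27, adjusted p = 0.00484). Both had WT means between the groups, at 6.75 and 6.95. COR27, an evening gene of the clock that also answers to cold, was higher at 6.56, 6.90 and 6.30 against 4.51, 5.64 and 5.50 (1.37, SE 0.31, adjusted p = 0.0244). That call was lost without C3H15-OE replicate 1 or 2 or mutant replicate 3. The clock gene GI read 8.84, 8.66 and 8.66 against 8.06, 8.38 and 8.31 (0.47, SE 0.13, adjusted p = 0.045) and lost its call whichever array was left out. WT averaged 7.43 for COR27 and 8.94 for GI, above both groups. AT4G33980 stood at 1.05 (adjusted p = 0.0759), and COR47, a dehydrin, at -0.37, neither past the threshold.

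SWEET proteins let sugars cross membranes, and of 15 named 4 were lower and 0 higher. SWEET13, a sucrose exporter, read 3.13, 3.28 and 3.05 in C3H15-OE and 4.35, 4.97 and 4.69 in the mutant (-1.51, SE 0.17, adjusted p = 0.00404). SWEET2, a vacuolar member, read 4.00, 4.16 and 4.24 against 5.11, 6.13 and 5.45 (-1.43, SE 0.24, adjusted p = 0.0109). SWEET1 (-1.08) and SWEET7 (-0.49) were lower too, and SWEET11, a phloem marker, stood at -0.07. WT lay at the C3H15-OE level for SWEET13 (3.08) and near the mutant for SWEET2 (6.02). The count was 2 when C3H15-OE replicate 1, C3H15-OE replicate 2 or mutant replicate 3 was left out, SWEET1 losing its call each time and SWEET7 keeping its call only without mutant replicate 1.

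Genes of pollen formation were dim. Of 19 listed genes of the tapetum and pollen wall 4 were named, and their levels ran from 1.91 to 3.81 over the 6 arrays. AMS, a regulator of the tapetum, stood at 0.02 and SWEET8 at -0.30, and 0 of the 4 passed. The 2 named genes of mature pollen read 2.71 to 3.69 with differences of -0.03 and 0.02. The root marker PYK10 read 2.07 to 2.28. No listed marker of xylem or epidermis was named, so the make-up of the stem pieces could not be checked through them.

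The other groups place these differences. WT arrays took no part in the fit, and their mean lay between the group means for 84.4% of the probe sets called higher and 83.2% of those called lower, against 47.5% of all probe sets. A wide gap between group means holds another mean more often by its size alone. On a scale with the mutant mean at 0 and the C3H15-OE mean at 1, the median position of WT was 0.494 for calls that were higher and 0.467 for calls that were lower. C3H14-OE stood at 0.753 and 0.747. It lay beyond C3H15-OE for 18.3% and 14.8% of the calls and beyond the mutant for 1.54% and 1.93%. Over all probe sets the median position was 0.451 for WT and 0.779 for C3H14-OE, near those of the calls, so these positions are not particular to the calls. Of all probe sets, C3H14-OE lay beyond C3H15-OE for 35.6% and beyond the mutant for 16.1%. Single WT arrays stood at 0.465, 0.592 and 0.430 for the higher calls and 0.427, 0.597 and 0.415 for the lower ones, replicate 2 being nearest to C3H15-OE. Mutant replicate 1 stood at 0.0942 and 0.147.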

How the data were processed

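Biotin-labelled cRNA made from 200 ng of total RNA per sample was hybridised to 1 array each. The deposited values are intensity on a linear scale, which the authors normalized with RMA, per the submitters' processing notes, with no version or setting of it given in the sources used here. Their log2 was taken. Of 22810 probe sets 64 controls were left out, with no filter on dim signals. Probe sets were named from the platform annotation, with symbols updated through the RefSeq table of TAIR10.1: 13513 had 1 gene, 503 several and 8730 were unlisted, 13436 matched RefSeq and 77 kept an older name. Coordinates are left out because the array's build is unknown.

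The 6 arrays were fitted with limma 3.58.1 in R 4.3.3 (group means, eBayes, 4 residual and 3.54 prior degrees of freedom), with Benjamini-Hochberg adjustment over 22746 probe sets and a threshold of 0.05. The script was tested on simulated data. Named genes are the 15 largest differences each way among 1-gene probe sets past the threshold without overlap between the groups, and up to 4 members of a list that passed, or up to 2 where none did; 5 or fewer members counted may all be named. Other genes were named after their values were seen: further members that illustrate a family, and those that divide the mutant arrays. The members and lists were chosen with earlier results of these data known. Endoglucanases, RALF-like and trichome birefringence-like proteins, actins, tetraspanins, NDH, chlorophyll, beta-glucosidases, defensins, glutamate receptors, ATP citrate lyase, TON1 recruiting motif proteins, subtilases, carboxypeptidases and both organelle genomes were grouped after values were seen, so their counts are descriptions. Same-numbered arrays deviated from their group means with correlations of 0.009, -0.118 and -0.012, and differently numbered ones with -0.111 to 0.139. With 3 arrays a group, these values cannot settle whether the numbers pair the arrays. Alternatives were other normalizations, an offset, filters, all 12 arrays, a replicate block, an intensity trend, array weights, probe set choice, a 2-fold minimum and each array left out. A planned search for promoter motifs was not run.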

Additional observations from a re-analysis of the deposited data

How the results depend on the processing

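The counts of 1946 probe sets higher and 1867 lower in C3H15-OE ranged from 564 to 2003 and from 741 to 2222 with 1 array left out. With an added 2-fold minimum they were 531 and 747, with 1-gene probe sets without shared suffixes 988 and 915, and with 1 probe set per gene 999 and 923, these last settings testing fewer probe sets. With the replicate number as a block they were 1279 and 1386, though whether the numbers pair the arrays is not settled. Under the other alternatives, which were a second quantile normalization, cyclic loess, log2(value + 16), leaving out the dimmest 40%, all 12 arrays in the fit, an intensity trend with robust eBayes, and array weights, they ran from 1679 to 2804 and from 1560 to 2433. Of 143 named probe sets 127 passed, 68 of them in every fit with 1 array left out, and all 127 kept their sign in every alternative run. Of the named probe sets 27 lost their call with log2(value + 16) and 17 with the block. With 3 arrays a group and no detection calls, dim genes carry little information.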

Other observations

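ATP citrate lyase makes the cytosolic acetyl-CoA used for wax, flavonoids and polymer acetylation, and 3 of its 4 named subunit genes were lower in C3H15-OE. ACLA-2 read 8.38, 8.26 and 8.83 in C3H15-OE and 9.63, 10.37 and 10.45 in the mutant (-1.66, SE 0.25, limma adjusted p = 0.00708). ACLB-1 stood at -0.88 and ACLA-1 at -0.81, both past the threshold, and ACLA-3 at 0.02. The count was 1 without C3H15-OE replicate 1 or 2. Subtilases, which are secreted proteases, were called in both directions: SBTI1.1 was lower (-1.83, SE 0.30, adjusted p = 0.00966) and SBT3.3 higher (1.38, SE 0.18, adjusted p = 0.00515). Of 14 named glutathione S-transferases, enzymes of detoxification, 1 was lower, GSTU18 (-1.55, SE 0.16, adjusted p = 0.00341), and 0 were higher. That lower share is near the 6.95% of all 1-gene probe sets, so it is not particular to the family.

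Genes that lie next to each other in the RefSeq order were compared. Among 5814 neighbouring pairs with both genes named, both were called in 143: 55 pairs were higher together, 36 lower together and 52 opposite. Of all 1-gene probe sets 7.47% were higher and 6.95% lower. Whether the pair counts differ from what these shares alone would give was not tested, and the pairs below are only examples. WRKY53 (2.53) lies next to AT4G23820 (-2.57), and the cytochrome P450 genes CYP71B35 (-0.57) and CYP71B36 (0.60) and the lectin genes JAL33 (-0.55) and JAL34 (1.42) also differed in direction, though all 4 of these calls were lost without C3H15-OE replicate 1. Among 152 genes with more than 1 probe set, 32 had a call, of which 26 had another probe set that was not called and 0 had calls in both directions.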
